A study of Homo sapiens with 12 samples.

Results

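The 10 genes described here, HK2, GPI, PFKP, ALDOA, TPI1, GAPDH, PGK1, ENO1, PKM and LDHA, encode enzymes of glycolysis and of lactate formation. They were taken by name from tables of 23621 gene rows, and all 10 were found in both tables and were among the 14251 active genes, those with an FPKM above 1 in at least 1 of 12 libraries. Glycolysis turns glucose into pyruvate in the cytosol through a chain of enzymes. The early steps spend ATP to phosphorylate the sugar, the late steps return ATP and reduce NAD, and lactate dehydrogenase regenerates the NAD by turning pyruvate into lactate. Tumor cells, ovarian carcinomas among them, commonly make lactate even with oxygen present, and most of these enzymes are encoded by several genes whose use differs between tissues.

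RNA-seq was carried out on KURAMOCHI (Ku) and COV362 (Cov), 2 lines derived from ovarian carcinoma, to ask how transcripts respond to THZ1, a covalent inhibitor of the transcriptional kinases CDK7, CDK12 and CDK13. Cells received DMSO, the vehicle, or THZ1 at 50 nM or 250 nM for 6 hr, with 2 libraries in each of 6 groups. RNA was normalized by cell count and mixed with ERCC spike-in RNAs, and the deposited FPKM (fragments scaled for transcript length and sequencing depth) had been normalized to these spike-ins. Polyadenylated RNA was sequenced, and GAPDH was the reference gene of the quantitative PCR in the same study. All groups were labelled as untransduced controls, so no introduced gene or knockdown enters. Ku cells were grown in RPMI and Cov cells in DMEM, both with fetal bovine serum and antibiotics, so line and medium cannot be told apart. Each line is a single culture model of a tumor. The replicates were biological duplicates per the labels.

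The serous markers differed between the lines. In DMSO, Ku libraries had a mean of 136 FPKM of PAX8, a lineage transcription factor of the fallopian tube and ovary, 56.8 of WT1 and 2432 of KRT8, with MUC16 at 0.166 and EPCAM at 4.13. Cov libraries had 124 FPKM of PAX8, 1355 of KRT7 and 162 of EPCAM, with WT1 at 0.653. KRT8 was at 1133 FPKM in Cov, but KRT7 was only at 4.61 in Ku. Thus PAX8 and the epithelial keratin KRT8 were abundant in both lines, whereas WT1 was near the floor in Cov and MUC16 in Ku. Of 9 markers of immune, endothelial and stromal cells, 5 were active. The highest of them were COL3A1 at 8.58 FPKM in Ku and CDH5 at 7.75 in Cov, and PTPRC and CD3E were below 1 FPKM in both. The enzyme genes have been grouped under the heading of long-lived mRNA, but decay was not measured here and no half-life can be read from a single time point. In these bulk cultures, fewer cells and less RNA per cell cannot be told apart beyond the cell counting done on the RNA samples.

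The genes lie apart in the genome, apart from a pair on chromosome 12. In the GENCODE annotation on GRCh37, the canonical transcript of HK2 (ENSG00000159399) spans chr2:75061254-75120486, that of GPI (ENSG00000105220) chr19:34856101-34893318, and that of PFKP (ENSG00000067057) chr10:3109740-3178994. ALDOA (ENSG00000149925) lies at chr16:30077081-30081735. TPI1 (ENSG00000111669) at chr12:6976695-6980112 and GAPDH (ENSG00000111640) at chr12:6643683-6647537 are 329.2 kb apart. PGK1 (ENSG00000102144) lies at chrX:77359745-77384792, ENO1 (ENSG00000074800) at chr1:8921059-8938745, PKM (ENSG00000067225) at chr15:72491370-72523531 and LDHA (ENSG00000134333) at chr11:18416110-18429972. ENO1 and PKM are on the minus strand, the others on the plus strand, and all are protein coding. The canonical transcripts varied in length. Their median spliced length was 2273 bases, against 3336 over 12017 active protein-coding genes, and their median genomic span was 21.4 kb against 28.0 kb. GAPDH, TPI1 and ALDOA were the most compact, with spliced lengths of 1285, 1351 and 1640 bases, whereas HK2, PGK1 and GPI, with 5626, 4812 and 4125 bases, exceeded the median of active genes. In genomic span PFKP, 69.3 kb, HK2, 59.2 kb, GPI, 37.2 kb, and PKM, 32.2 kb, exceeded it.

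Promoter sequence was taken from RefSeq windows, tabulated on GRCh38.p14 and placed on GRCh37 by an exact match of the 250 bases before each start. All 10 genes had a window, and PFKP had 4, ALDOA 3, and HK2, TPI1 and LDHA 2 each. Of several windows the 1 nearest the canonical start was used, whereas for other active genes the first listed was taken, so the counts depend on this choice. The 4 printed here, all on the plus strand, are those that end at the canonical start and have at most 3 bases within an annotated exon of the gene. They were chosen by this position and not by fold change. HK2 and LDHA had the largest falls at 250 nM in both lines, and ALDOA and PGK1 smaller ones. They cover chr2:75061004-75061253 for HK2, chr11:18415860-18416109 for LDHA, chr16:30076831-30077080 for ALDOA and chrX:77359495-77359744 for PGK1. Capitals mark ACGTG, the core of hypoxia response elements, CACGTG, the E-box palindrome, which holds ACGTG on each strand, and the GC box GGGCGG, each searched on both strands.
HK2: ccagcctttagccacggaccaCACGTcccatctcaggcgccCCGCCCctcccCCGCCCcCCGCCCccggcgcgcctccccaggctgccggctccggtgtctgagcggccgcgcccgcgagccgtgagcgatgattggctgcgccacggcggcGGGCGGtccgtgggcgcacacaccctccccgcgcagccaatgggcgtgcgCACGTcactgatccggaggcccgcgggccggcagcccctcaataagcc
LDHA: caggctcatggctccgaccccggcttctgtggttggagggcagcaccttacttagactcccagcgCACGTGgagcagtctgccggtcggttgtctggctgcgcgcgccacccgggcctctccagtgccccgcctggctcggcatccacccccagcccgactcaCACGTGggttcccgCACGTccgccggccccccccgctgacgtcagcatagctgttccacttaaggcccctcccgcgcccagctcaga
ALDOA: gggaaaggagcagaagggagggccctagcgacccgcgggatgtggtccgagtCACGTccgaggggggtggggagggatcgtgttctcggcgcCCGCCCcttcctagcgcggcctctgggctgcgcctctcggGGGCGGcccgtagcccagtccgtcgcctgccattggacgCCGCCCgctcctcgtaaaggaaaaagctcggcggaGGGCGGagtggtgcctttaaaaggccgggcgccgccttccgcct
PGK1: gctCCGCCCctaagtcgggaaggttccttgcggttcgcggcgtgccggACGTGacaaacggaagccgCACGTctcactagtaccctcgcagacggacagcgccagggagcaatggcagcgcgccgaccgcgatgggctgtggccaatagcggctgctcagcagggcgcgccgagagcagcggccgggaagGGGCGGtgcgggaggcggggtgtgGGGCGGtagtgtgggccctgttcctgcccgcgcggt

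The windows of GPI, TPI1, ENO1 and PKM lie wholly within an annotated exon of the gene, and that of GAPDH by 128 of its 250 bases. Those of GAPDH, PFKP and GPI lie 747, 422 and 204 bases from the canonical start. In the windows of all 10 genes, counted as they are, ACGTG was found in 6, against 18.5% of 35116 RefSeq windows and 23.4% of the windows of 10050 active genes. LDHA held 5 matches, counting both strands, HK2 and PGK1 2 each and ALDOA 1, and GPI and GAPDH held the others. CACGTG was found in 2 windows, those of LDHA and GAPDH, against 6.34% of all windows and 9.05% of those of active genes. GGGCGG was found in 8 of the 10, against 42.6% of all windows and 67.2% of those of active genes. GPI and LDHA lacked it. TATAAA was in 0 of the 10, in 10.7% of all windows and in 5.29% of those of active genes. The median GC content was 71.2%, against 65.2% for active genes. These matches describe letters in the reference sequence. Both genes with the deepest falls and genes with shallow ones held ACGTG, and binding was not measured.

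In untreated cells the genes covered a range of more than 100-fold. Levels are compared in FPKM, which is per transcript length. How reads shared with processed pseudogenes of these genes were assigned is not stated, so levels, ranks and order carry that doubt. In Ku DMSO libraries the order was GAPDH at 4400 ± 134 (SD, n = 2), ENO1, PKM, ALDOA, TPI1, LDHA, GPI, PGK1, PFKP and HK2 at 25.7 ± 1.8, and no neighbours in this order overlapped between libraries. In Cov DMSO libraries the order was GAPDH at 8386 ± 789, ENO1, PKM, TPI1, LDHA, ALDOA, PGK1, GPI, PFKP and HK2 at 26.3 ± 1.19, and only LDHA and ALDOA, at means of 810 and 801, overlapped. GAPDH ranked 9 in Ku and 7 in Cov among 21923 rows without small RNAs, while HK2 ranked 4367 and 4878. Levels set across the lines come from tables normalized separately. ALDOA, TPI1, GAPDH, ENO1 and PKM ranked at 168 or above in both lines, PGK1 at 421 in Ku and 353 in Cov, and PFKP at 2298 and 1837.

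**Figure D1:**
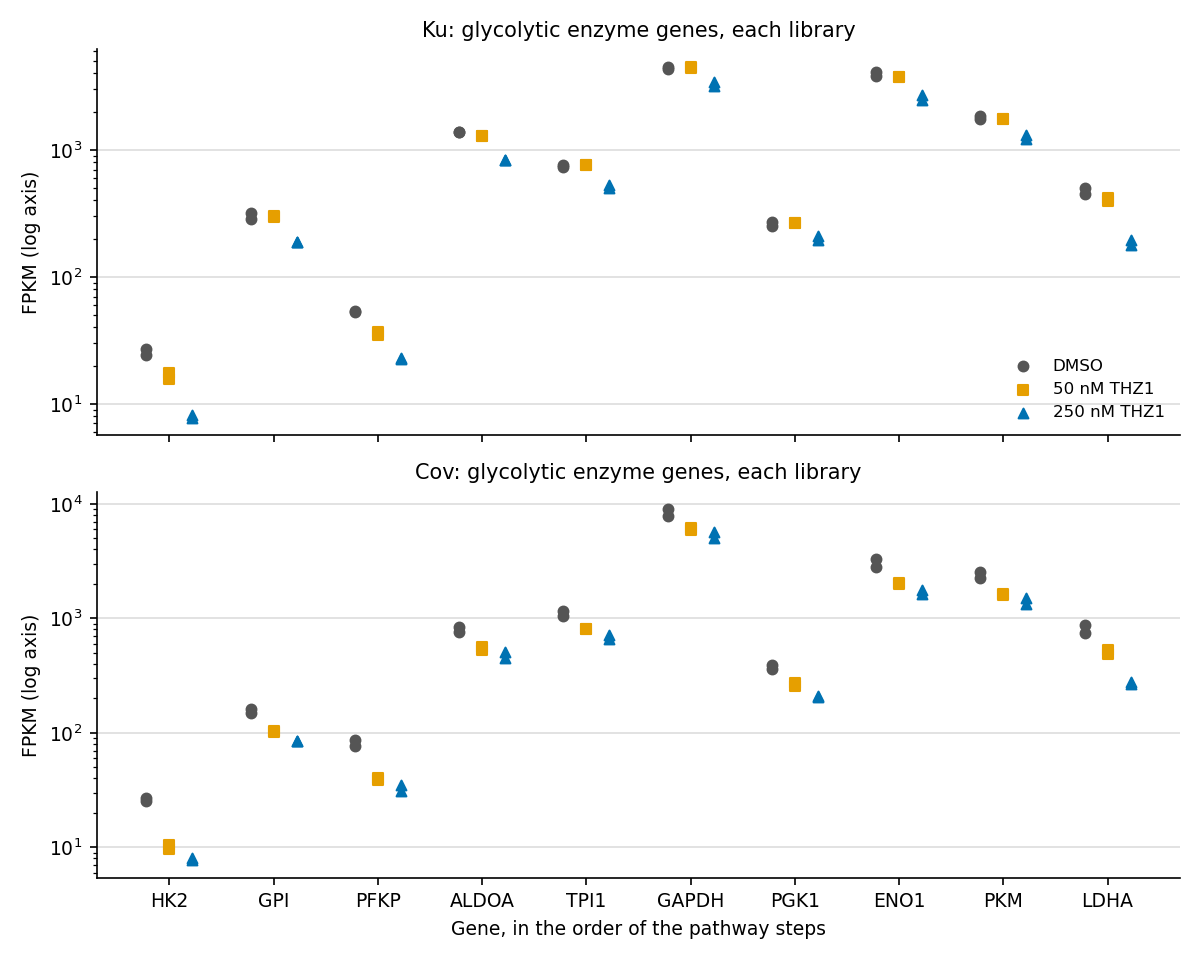
FPKM on a log axis of the 10 enzyme genes in each of the 12 libraries, in pathway order, with Ku above and Cov below (circles DMSO, squares 50 nM, triangles 250 nM THZ1). On the spike-in scale every gene at 250 nM lay below its DMSO libraries in both lines, though 7 of the 10 turn positive in each line with equal totals, with HK2 the lowest and GAPDH the highest of the 10.

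HK2, hexokinase 2, phosphorylates glucose on entry into the cell and is the hexokinase gene most often raised in tumors. In Ku cells its FPKM was 26.9 and 24.4 in DMSO, 17.45 and 15.65 at 50 nM, and 7.77 and 8.20 at 250 nM. In Cov cells it was 25.4 and 27.1 in DMSO, 9.71 and 10.4 at 50 nM, and 7.71 and 8.03 at 250 nM. The groups did not overlap in either line. In Ku the decline was spread over both doses, whereas in Cov most of it was present at 50 nM. For 250 nM the log2 fold change was -1.57 ± 0.10 (SE) in Ku (limma, adjusted p = 2.62e-05) and -1.62 ± 0.09 in Cov (adjusted p = 2.47e-06). PFKP encodes the platelet-type phosphofructokinase, which catalyses the committed step. It read 54.3 and 52.4 FPKM in Ku DMSO, 35.1 and 36.9 at 50 nM, and 23.0 and 22.6 at 250 nM. In Cov it read 77.1 and 86.1 in DMSO, 38.4 and 40.4 at 50 nM, and 30.9 and 35.35 at 250 nM. No groups overlapped. The step from DMSO to 50 nM was the larger in Cov on either scale. In Ku it was the larger in FPKM but not on the log2 scale, at -0.56 against -0.64 between the doses. Its log2 fold change at 250 nM was -1.19 ± 0.07 in Ku (limma, adjusted p = 1.69e-05) and -1.28 ± 0.10 in Cov (adjusted p = 1.12e-05). GPI, which lies between them and isomerizes the sugar phosphate, overlapped DMSO at 50 nM in Ku. Its means were 304 ± 22.5 FPKM (SD, n = 2) in DMSO and 299.9 ± 1.32 at 50 nM, with the 50 nM libraries within the DMSO range, and 189 ± 0.449 at 250 nM. In Cov the means were 154.5 ± 8, 103 ± 1.49 and 85.6 ± 0.119.

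ALDOA, the muscle-type aldolase that splits the doubly phosphorylated sugar, and TPI1, which interconverts the triose products, had lower levels at 250 nM in both lines. In the order DMSO, 50 nM and 250 nM, ALDOA means in Ku were 1385 ± 9.6, 1292 ± 7.02 and 832 ± 8.46 FPKM (SD, n = 2), and 801 ± 67.7, 547 ± 24.7 and 480.5 ± 40.8 in Cov. TPI1 means were 745 ± 24.8, 759.7 ± 0.0121 and 514 ± 22.3 in Ku, and 1107 ± 88.1, 807.5 ± 9.58 and 688.5 ± 44.4 in Cov. At 50 nM TPI1 in Ku thus lay within its DMSO range. GAPDH, which oxidizes the triose phosphate, was the most abundant of the 10. It read 4494 and 4305 FPKM in Ku DMSO, 4429 and 4517 at 50 nM, and 3398 and 3198 at 250 nM. In Cov it read 7828 and 8944 in DMSO, 6164 and 5921 at 50 nM, and 5050 and 5707 at 250 nM. In Ku the 50 nM libraries overlapped those of DMSO and those at 250 nM were lower than all others. In Cov both doses lay below DMSO, and the doses did not overlap, with 5921 and 5707 as their nearest values. The log2 fold change of GAPDH at 250 nM was -0.42 ± 0.09 (SE) in Ku (limma, adjusted p = 0.00525) and -0.64 ± 0.13 in Cov (adjusted p = 0.00253), short of the threshold on adjusted p in both. In Ku the fold change of GAPDH was also below the size required for a call.

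PGK1 follows GAPDH and makes ATP from its product. It read 272 and 251 FPKM in Ku DMSO, 267.1 and 266.8 at 50 nM, and 210.1 and 194.5 at 250 nM. In Cov it read 359.9 and 395.0 in DMSO, 254.5 and 273 at 50 nM, and 205.3 and 209.1 at 250 nM. PGK1 thus overlapped DMSO at 50 nM in Ku alone. Its log2 fold change at 250 nM was -0.37 ± 0.07 in Ku (limma, adjusted p = 0.00224), short of both the size and the adjusted p required for a call. In Cov it was -0.86 ± 0.09 (limma, adjusted p = 4.18e-05). ENO1, the enolase of most tissues, and PKM, the pyruvate kinase gene whose tumor form arises by splicing, followed. In the same order of groups, ENO1 means in Ku were 3961 ± 188, 3740.0 ± 11.2 and 2604 ± 162 FPKM (SD, n = 2), and 3076 ± 354, 2009 ± 38.5 and 1703 ± 113 in Cov. PKM means were 1807 ± 74.1, 1751 ± 7.68 and 1263 ± 56 in Ku, and 2382 ± 216, 1609 ± 30.9 and 1407 ± 117 in Cov. ENO1 in Ku had an adjusted p of 0.00102 with limma, just short of the threshold of 0.001. The splice forms of PKM cannot be told apart in gene-level values.

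LDHA, which turns pyruvate into lactate, was the exception among the abundant genes. In Ku it read 502 and 450.0 FPKM in DMSO, 421 and 394 at 50 nM, and 197 and 179 at 250 nM. In Cov it read 747 and 873 in DMSO, 485 and 529 at 50 nM, and 279 and 265.0 at 250 nM. The 3 groups were ordered by dose with no overlap in either line, and on the log2 scale the larger step lay between 50 nM and 250 nM, whereas in FPKM it did so in Ku only. At 250 nM the log2 fold change was -1.33 ± 0.08 in Ku (limma, adjusted p = 2.44e-05) and -1.57 ± 0.11 in Cov (adjusted p = 5.41e-06). In Ku libraries at 250 nM LDHA had dropped to the level of GPI, at means of 188 and 189 FPKM whose libraries overlapped.

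The 3 genes with the largest falls were therefore the same in both lines, at the entry (HK2), at the committed step (PFKP) and at the exit to lactate (LDHA). Against DMSO the 10 genes at 50 nM and at 250 nM share their control libraries, so the doses are given side by side. Active genes were tested with limma on log2(FPKM + 1), with p-values adjusted over all 14251, and a call needed both a log2 fold change beyond 0.5 and an adjusted p under 0.001. At 50 nM in Ku, 0 of the 10 genes were called lower by limma, against a background of 11.3% of active genes, and 3 were lower at an unadjusted p under 0.05, against 61% of active genes. At 250 nM in Ku 7 were called lower, against 68.6%, and GAPDH, PGK1 and ENO1 were not. In Cov, 5 were called lower at 50 nM (HK2, GPI, PFKP, PGK1 and LDHA), against 70.5%, and 9, all but GAPDH, at 250 nM, against 84%. Limma called 0 of the 10 higher in any of these comparisons, against backgrounds called higher of 0.0842% (50 nM) and 0.0491% (250 nM) in Ku and 0.0772% and 0.105% in Cov. At an unadjusted p under 0.05 the number higher was likewise 0, against 1.46% (50 nM) and 0.182% (250 nM) of active genes in Ku and 0.4% and 0.309% in Cov. This depends on the scale, since at 250 nM median-of-ratios scaling gave 4 called higher in Ku and 7 in Cov, against 1579 and 1222 of the 14251 active genes, and equal totals gave 2 in Ku and 0 in Cov, against 250 and 50. Between the doses, 6 were lower at 250 nM than at 50 nM in Ku (HK2, GPI, PFKP, ALDOA, TPI1 and LDHA), against 36%, and in Cov LDHA was, against 24.4%. For calls of lower levels against DMSO on the spike-in scale, the shares at 250 nM were near the background and those at 50 nM below it. Counts under the other scalings and between the doses were not all near theirs, and nothing particular to these genes is claimed from any of them. With a single gene and 2 libraries against 2, an exact permutation test cannot give a p below 0.33, and the calls rest on the pooled spread.

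By a rule without a threshold, 5 of the 10 genes in Ku at 50 nM had both treated libraries below both DMSO libraries, as did 75.8% of active genes. At 250 nM in Ku all 10 did, against 95.9%, and in Cov all 10 did at 50 nM, against 95.7%, and at 250 nM, against 95.6%. Some counts of calls rest on single libraries. The number of the 14251 active genes called lower is given in brackets after each. At 250 nM in Ku the count was 4 without 250 nM replicate 1 (6085) or replicate 2 (6319). In Cov at 50 nM it was 2 without DMSO replicate 2 (4314), 50 nM replicate 1 (8492) or 50 nM replicate 2 (9929), and 3 without 250 nM replicate 1 (9747) or replicate 2 (9757). In Cov at 250 nM it was 5 without 250 nM replicate 1 (10978) and 6 without 250 nM replicate 2 (11253). Between doses it was 0 in Ku without 50 nM replicate 1 (839), 250 nM replicate 1 (791) or 250 nM replicate 2 (1022), and 1 without 50 nM replicate 2 (1603). In Cov LDHA was not called between doses without 50 nM replicate 2 (2664), 250 nM replicate 1 (1692) or 250 nM replicate 2 (1518).

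**Figure D2:**
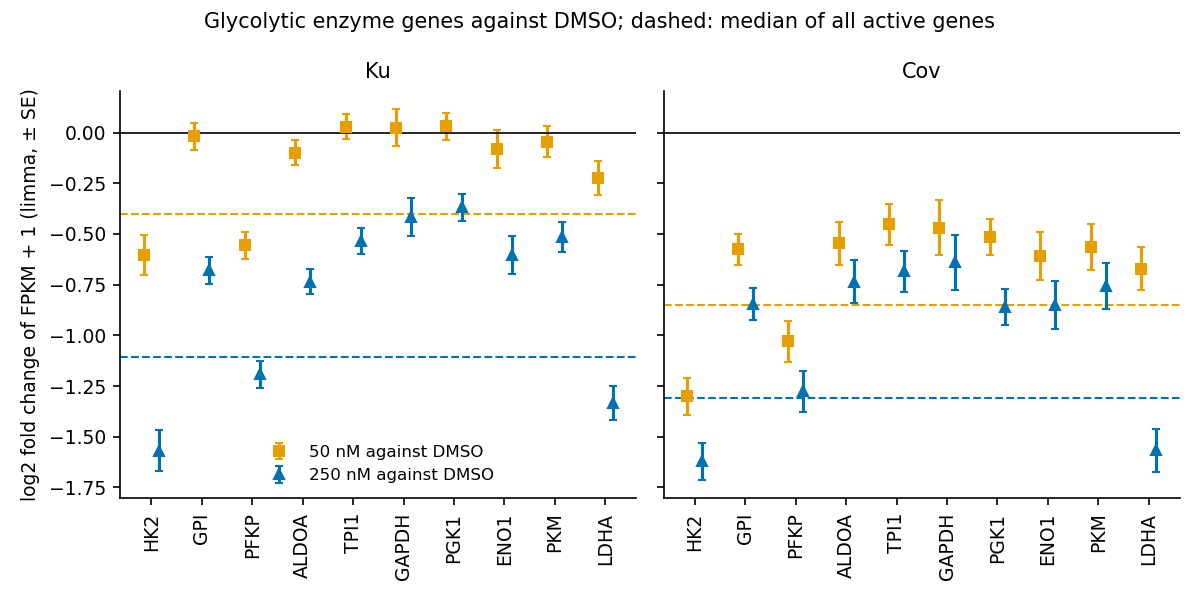
Log2 fold changes of FPKM + 1 against DMSO (limma estimate ± SE, 2 libraries a group) of the 10 genes in Ku (left) and Cov (right), at 50 nM (squares) and 250 nM (triangles), with dashed lines at the median of all active genes. HK2, PFKP and LDHA lie lowest at 250 nM, at -1.57, -1.19 and -1.33 in Ku and -1.62, -1.28 and -1.57 in Cov, and PFKP in Cov and the other 7 in both lines lie above the medians of -1.11 and -1.31. Those 7 turn positive with equal totals.

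Relative to other active genes, 7 of the 10 in Ku and 8 in Cov had smaller declines than the median at 250 nM. In Ku their median log2 fold change was -0.06 at the lower and -0.64 at the higher dose, against -0.40 and -1.11 over all active genes. In Cov it was -0.57 and -0.85, against -0.85 and -1.31. The distance between the medians was thus 0.34 and 0.47 in Ku and 0.28 and 0.46 in Cov. It depends on which genes are compared: without the filter for active genes it was 0.0669 and -0.14 in Ku and -0.0684 and -0.15 in Cov, so its sign turned at 250 nM in both lines and at 50 nM in Cov. The rows so added never exceed 1 FPKM, and with 1 added to FPKM they can fall little. Among genes above 10 FPKM in at least 1 library the distance was 0.36 and 0.65 in Ku and 0.35 and 0.65 in Cov. With a pseudocount of 0.1 it was 0.43 and 0.75 in Ku and 0.43 and 0.70 in Cov. The 10 genes are also more abundant than most, and active genes above 100 FPKM in DMSO had medians of -0.17 and -0.78 in Ku and -0.69 and -1.15 in Cov. At 250 nM, 87.1% of active genes in Ku had a lower log2 fold change than PGK1, 85.5% lower than GAPDH, and 85.0% in Cov lower than GAPDH. For HK2 this share was 29.7% in Ku and 34.2% in Cov. The direction of the enzyme genes depends on the spike-in scale: with each library brought to the same total FPKM, 7 of the 10 had positive log2 fold changes at 250 nM in each line, and with median-of-ratios scaling 9 had. These scalings bring the library totals, or the median gene, to a common level, so a fall shared by all genes is removed. At 250 nM they moved the median of all active genes by 0.75 and 1.11 in Ku and by 0.87 and 1.32 in Cov. The median of the 10 then exceeded that of all active genes by 0.67 and 0.81 in Ku and by 0.63 and 0.75 in Cov.

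**Figure D3:**
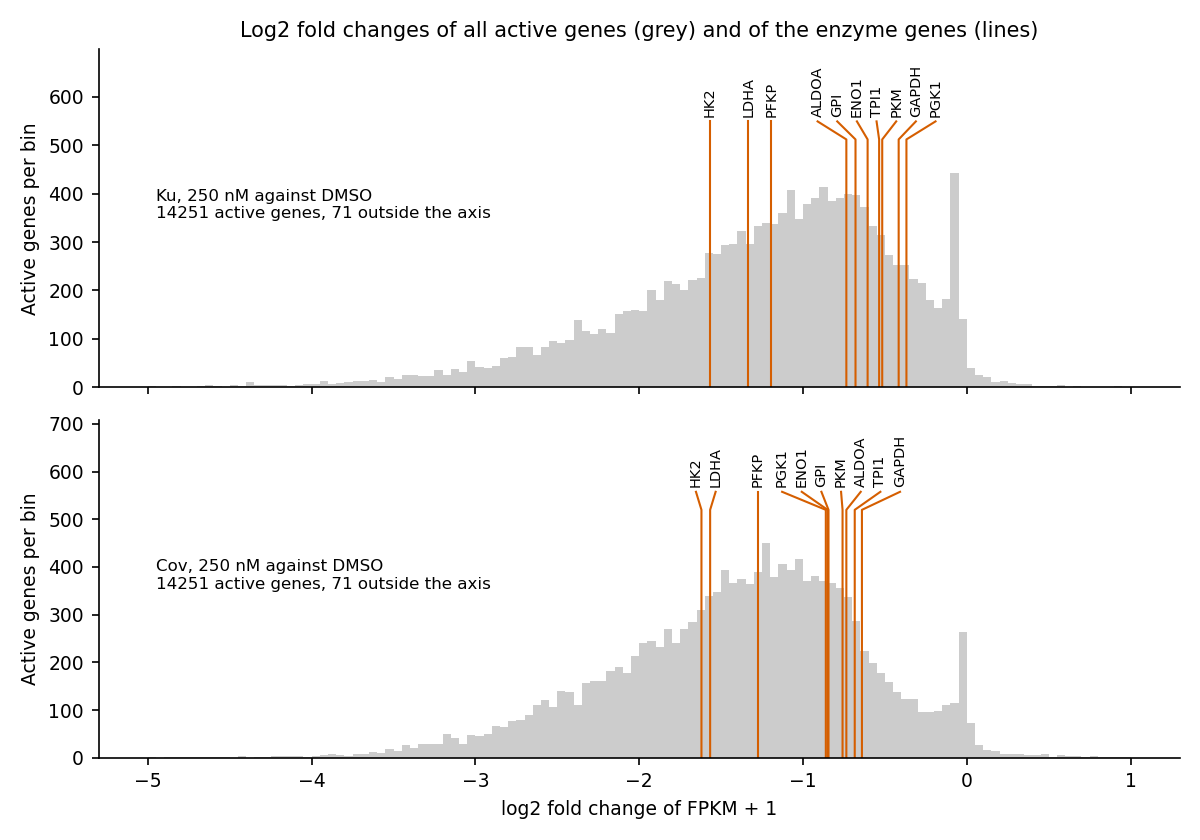
Histograms of the log2 fold changes at 250 nM of 14251 active genes in Ku (top) and Cov (bottom), with lines at the 10 enzyme genes. HK2, at -1.57 and -1.62, and LDHA, at -1.33 and -1.57, lie left of the medians of -1.11 and -1.31, and GAPDH, at -0.42 and -0.64, lies on the right flank. With median-of-ratios scaling LDHA turns positive in both lines.

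A share within a library does not depend on the spike-in scale. The 10 genes together held 1.12 and 1.06% of the summed FPKM in the Ku DMSO libraries, 1.27 and 1.34% at 50 nM, and 1.42 and 1.45% at 250 nM. In Cov they held 1.09 and 1.09% in DMSO, 1.15 and 0.985% at 50 nM, and 1.28 and 1.415% at 250 nM. The share was thus higher at 250 nM than in DMSO in both libraries of each line, while at 50 nM both libraries were higher in Ku and overlapped DMSO in Cov. Rows of the small RNA gene MIR1244, are part of these totals, at means of 35.4%, 33% and 30.4% in Ku and 35.4%, 44.1% and 36.2% in Cov for DMSO, 50 nM and 250 nM. With small RNA rows left out, both Cov libraries at 50 nM, 2.04 and 1.89%, lay above those of DMSO, 1.72 and 1.75%. Without small RNA rows the mean share went from 1.78 ± 0.0481% (SD, n = 2) over 2.03 ± 0.0841% to 2.11 ± 0.00424% in Ku and from 1.73 ± 0.0226% over 1.96 ± 0.105% to 2.21 ± 0.148% in Cov. Within the sum, GAPDH took 32.8% in Ku DMSO and 36.2% at 250 nM, and 48.8% and 52.4% in Cov, while LDHA went from 3.55% to 2.06% and from 4.71% to 2.66%. Summed FPKM of the 10 was 13420 ± 509 in DMSO and 9120 ± 414 at 250 nM in Ku, and 17200 ± 1650 and 10260 ± 775 in Cov.

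Most steps have further genes that encode the same activity, and ratios of FPKM within a library compare them without any scaling. HK2 stood below HK1, the hexokinase of most adult tissues, with a ratio of 0.508 and 0.506 in Ku DMSO, 0.395 and 0.374 at 50 nM, and 0.278 and 0.317 at 250 nM. In Cov the ratio was 0.471 and 0.438, then 0.321 and 0.309, then 0.337 and 0.316. The balance was therefore lower in every treated library, and in Cov it was no lower at 250 nM than at 50 nM. LDHA against LDHB, the heart-type subunit of lactate dehydrogenase, went from 0.651 and 0.637 in Ku DMSO over 0.607 and 0.61 to 0.345 and 0.355. In Cov it went from 0.582 and 0.582 over 0.536 and 0.55 to 0.373 and 0.357. The heart-type subunit was the more abundant transcript in all libraries, and the shift took place mainly between the doses. PFKP against PFKM, the muscle-type phosphofructokinase, had mean ratios of 2.03 ± 0.0772 (SD, n = 2) in DMSO and 1.09 ± 0.0659 at 250 nM in Ku, and 1.51 ± 0.014 and 1.06 ± 0.0551 in Cov. Against PFKL, the liver type, they were 0.826 ± 0.0205 and 0.615 ± 0.00644 in Ku and 1.825 ± 0.041 and 1.35 ± 0.0927 in Cov. In each of these pairs the gene with a more shallow fall was the partner. ALDOC was 36.5 FPKM in Ku DMSO and 0.286 in Cov, so that ALDOA exceeded it 38.1-fold in Ku, and ENO1 exceeded ENO2, the neuronal enolase, 397-fold in Ku and 175-fold in Cov.

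**Figure D4:**
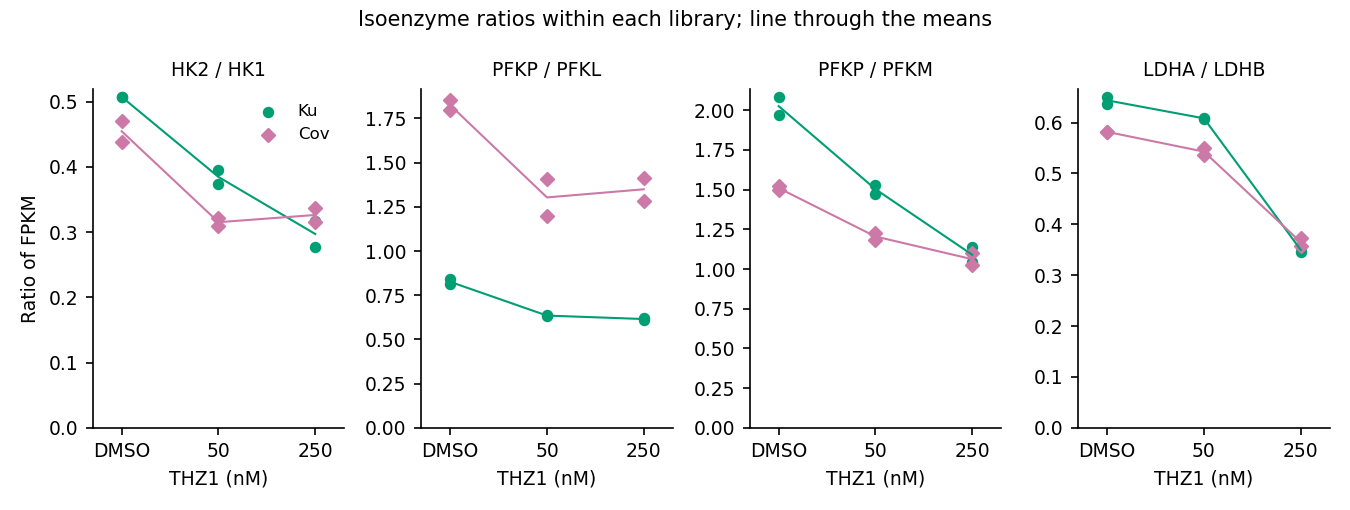
Ratios of FPKM between isoenzyme genes in each library (points) and their means (lines) in Ku and Cov at the 3 conditions, each axis starting at 0. LDHA to LDHB goes from means of 0.644 and 0.582 in DMSO to 0.350 and 0.365 at 250 nM, and HK2 to HK1 from 0.507 and 0.454 to 0.297 and 0.326.

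Of 21 further isoenzyme genes, 14 were active, and at 250 nM limma called 4 lower in Ku (28.6%, against 68.6% of active genes) and 11 in Cov (78.6%, against 84%), with medians of -0.61 and -0.84. PGAM1, the phosphoglycerate mutase that completes the late steps, had log2 fold changes of -0.49 ± 0.06 (SE) in Ku and -0.84 ± 0.09 in Cov. Its level, like that of PGAM4, a retrogene copy, is uncertain because their reads can be shared. BPGM, which diverts an intermediate into the bisphosphoglycerate that regulates hemoglobin, had the largest falls, -1.57 ± 0.10 in Ku and -1.97 ± 0.11 in Cov. Of 8 carriers of glucose, lactate and pyruvate, 7 were active and 5 in Ku and 6 in Cov were called lower at 250 nM (71.4% and 85.7%, near the 68.6% and 84% of active genes), with medians of -1.16 and -1.41. Those not called were near the floor in DMSO, SLC2A3 (0.138 FPKM) and SLC16A7 (0.1995) in Ku and SLC2A4 (0.276) in Cov. With 1 added to FPKM they could not fall far enough for a call, yet they enter these shares and medians. SLC2A1, the main glucose carrier of tumor cells, went from 303.6 to 95.4 FPKM in Ku and from 194 to 51.9 in Cov. SLC16A1, a lactate carrier, went from 89.6 to 39.4 and from 62.7 to 15.0. BSG, the chaperone of such carriers and the most abundant of the list, had log2 fold changes of -0.54 and -0.66. SLC2A4, the insulin-responsive glucose carrier, was at 4.35 FPKM in Ku DMSO and 0.669 at 250 nM, and below 1 FPKM in Cov.

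Regulators of glycolysis spanned a wide range of falls. Of 11 regulators 10 were active, and at 250 nM 5 were called lower in Ku and 9 in Cov (50% and 90%, against 68.6% and 84% of active genes), with medians of -0.97 and -1.29. TXNIP, which restrains glucose uptake, went from 177.5 to 15.9 FPKM in Ku and from 49.6 to 6.73 in Cov, the largest fall of the list in each line. HIF1A, the hypoxia-responsive factor that raises many glycolytic genes, had log2 fold changes of -0.92 ± 0.08 (SE) in Ku and -1.74 ± 0.11 in Cov. PDK3, a kinase that restrains pyruvate dehydrogenase, had the smallest, -0.27 ± 0.19 and -0.76 ± 0.15, and was not called. Beyond pyruvate, all 7 genes of the mitochondrial pyruvate carrier and pyruvate dehydrogenase were called lower in both lines, against 68.6% of active genes in Ku and 84% in Cov, with medians of -0.81 and -1.47. PDHX, a binding subunit of that complex, had the largest falls, -1.48 and -2.01. Beside the same shares of active genes, of 7 pentose phosphate genes 6 were called lower in Ku and 7 in Cov, with medians of -0.89 and -0.88, and of 16 citric acid cycle genes 14 in Ku and 16 in Cov, with medians of -0.75 and -1.12. TKT and MDH2 were the most abundant of these lists. Of 47 genes named outside the 10, the sign at 250 nM was opposite with equal totals for 31 in Ku and 23 in Cov, and with median-of-ratios scaling for 34 and 30.

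**Figure D5:**
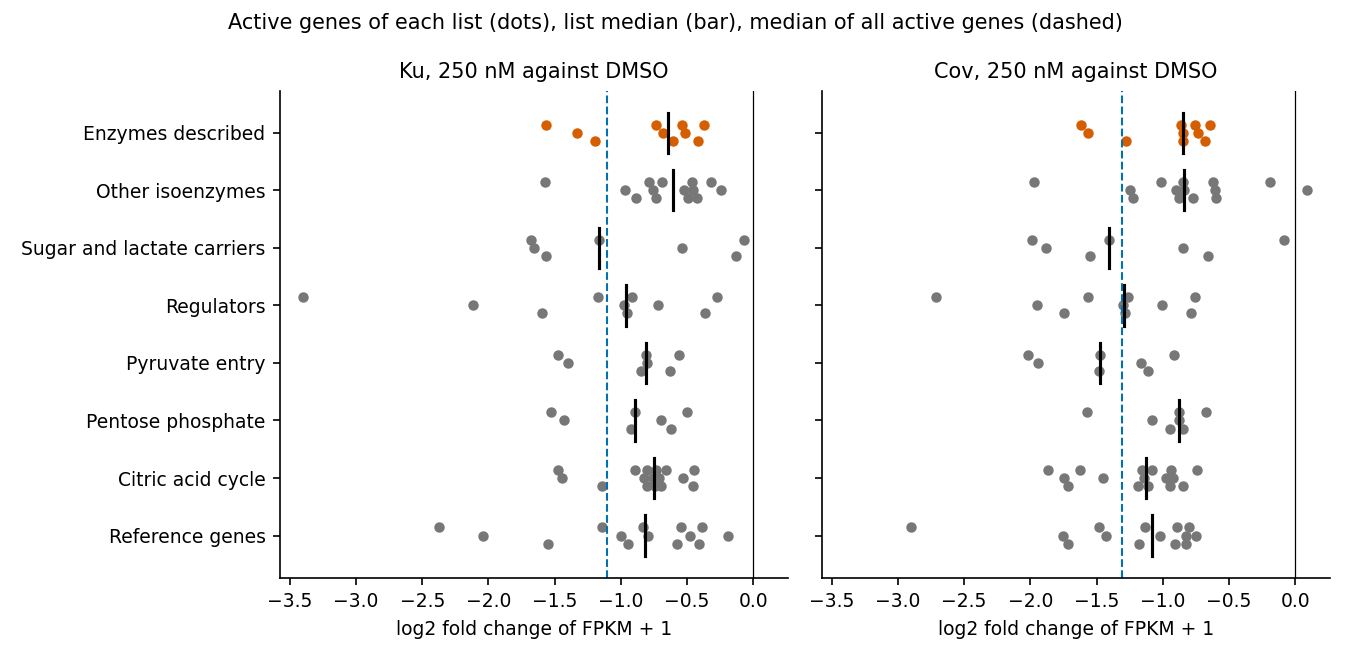
Log2 fold changes at 250 nM of the active genes of 8 lists in Ku (left) and Cov (right), a dot for each gene, a bar at the list median and a dashed line at the median of all active genes, -1.11 in Ku and -1.31 in Cov. The bar of the enzyme genes stands at -0.64 and -0.85 and that of the carriers at -1.16 and -1.41, on the spike-in scale only, since many signs turn under other scalings.

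GAPDH itself was set against 14 genes in common use as references. Their median log2 fold change at 250 nM was -0.82 in Ku and -1.08 in Cov, and 9 (64.3%) and 14 (100%) were called lower, against 68.6% and 84% of active genes. ACTB, the most abundant, went from 5359 to 3082 FPKM in Ku and from 5734 to 3050 in Cov. TBP had the largest falls, -2.37 ± 0.13 (SE) in Ku and -2.90 ± 0.12 in Cov. The smallest were those of B2M in Ku, -0.19 ± 0.08, and RPLP0 in Cov, -0.75 ± 0.11. GAPDH had -0.42 ± 0.09 in Ku, a larger fall than B2M, and -0.64 ± 0.13 in Cov, a smaller fall than RPLP0. When each library was divided by its own GAPDH value, a scale chosen after the data were seen, the median log2 fold change of active genes at 250 nM became -0.78 in Ku and -0.76 in Cov. On that scale 3 of the other 9 enzyme genes, HK2, PFKP and LDHA, were called lower in each line, against 50.1% of active genes in Ku and 47.3% in Cov. Their values were -1.19, -0.79 and -0.92 in Ku and -1.02, -0.65 and -0.93 in Cov. The remaining 6 lay between -0.32 and 0.05 in Ku and between -0.22 and -0.04 in Cov. Thus 3 of the genes were called lower on this scale and 6 were not, in both lines. Not being called does not mean equal to GAPDH. ALDOA in Ku, at -0.32 ± 0.05 (SE), had an adjusted p of 0.00106 with limma. As a contrast, the 12 immediate early genes, known for rapid turnover, had medians of -1.37 in Ku and 0.30 in Cov at 250 nM. DUSP1 had log2 fold changes of -3.96 in Ku and -3.45 in Cov, whereas IER3 had -0.01 in Ku and JUNB rose by 1.51 in Cov.

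The active genes whose profile over the 12 libraries lay nearest to the mean of the 10 were RHOC, COTL1, EIF3F, PCCB and TLN1. Nearness was the root mean square difference of log2(FPKM + 1) after subtraction of the DMSO mean of the line, and it was 0.0325 for RHOC and 0.0463 for TLN1. RHOC, a small GTPase, had log2 fold changes of -0.16 and -0.79 in Ku and -0.67 and -0.99 in Cov at the 2 doses. The enzyme genes themselves were spread around their mean. ENO1 and GPI were nearest, at 0.105 each, and HK2, at 0.518, was farthest, with 8895 as its rank among active genes. The 10 genes thus did not form a compact group. PFKP, LDHA and HK2 were the farthest from the mean, which they enter themselves. The distances were graded, at 0.238 for GAPDH, 0.299 for PFKP and 0.330 for LDHA.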

How the data were processed

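The authors deposited FPKM normalized to spike-ins, and these values were used as they are. Their processing notes name HISAT, Cufflinks and Cuffnorm on hg19, without versions. Sequencing depth is unknown. Genes were active when FPKM exceeded 1 in at least 1 of 12 libraries, which kept 14251 of 23621. Log2(FPKM + 1) was fitted for each line apart with limma 3.58.1 (lmFit, eBayes with trend) in R 4.3.3, and p-values were adjusted by the method of Benjamini and Hochberg. Calls required a log2 fold change beyond 0.5 together with an adjusted p under 0.001. Counts were not available, so no count-based model was fitted. The lines' tables were normalized separately and no test between lines was made. The code was tested on simulated data.

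The 10 genes and the other lists were written from general knowledge and chosen with earlier results of these data known. From each list the gene with the highest DMSO mean, the largest fall and the smallest fall in each line were named, along with isoenzyme partners. Names were matched to GENCODE on GRCh37, which found 12757 of the active genes and all 10 enzyme genes. Python 3.11.15 and matplotlib 3.10.9 made the plots. Alternatives were other pseudocounts, filters, scalings, thresholds, a replicate block and leaving out each library, and the GAPDH scale and totals without small RNAs were chosen after seeing the data.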

Additional observations from a re-analysis of the deposited data

Results flagged for a closer look

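Among the pathway genes and the other genes named, those listed next had both treated libraries above both DMSO libraries in one line and below them in the other. The difference between lines was not tested. At 50 nM on the spike-in scale the log2 fold changes were 0.15 in Ku and -0.79 in Cov for DLST, 0.12 and -0.36 for MPC2, 0.32 and -0.69 for PDK3, 0.23 and -0.44 for SLC16A1, and 0.072 and -0.43 for MSLN. With GAPDH as the reference, MPC2 (0.093 and 0.095), SLC16A1 (0.21 and 0.023) and MSLN (0.048 and 0.037) were positive in both lines. Their opposite signs thus depend on the scale. On that scale DLST (0.13 and -0.33) and PDK3 (0.30 and -0.33) still had opposite signs. At 250 nM JUNB had -0.59 in Ku and 1.51 in Cov. The list does not hold every gene of opposite sign. TPI1, GAPDH and PGK1 at 50 nM also had positive values in Ku and negative ones in Cov, but their Ku libraries overlapped DMSO. Other immediate early genes, EGR1, IER2, ZFP36 and FOS among them, met the same rule as JUNB at 250 nM. Both of their treated libraries lay below both DMSO libraries in Ku and above both in Cov.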

How the results depend on the processing

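Counts of the 10 genes called lower by limma are given for the 50 nM, 250 nM and between-dose comparisons of Ku, then of Cov, each set followed by the number of all genes tested that were called lower under the same setting. On the spike-in scale with all thresholds as stated they were 0, 7, 6, 5, 9 and 1 (all genes 1607, 9774, 5132, 10042, 11971 and 3474). With GAPDH as the reference they were 1, 3, 1, 0, 3 and 0 (all genes 2082, 7138, 2258, 1748, 6741 and 1212). With equal total FPKM they were 0, 0, 0, 1, 2 and 0 (all genes 590, 3791, 1440, 3486, 5352 and 1081). With equal totals without small RNA rows they were 0, 2, 1, 1, 1 and 1 (all genes 1173, 5078, 2327, 1460, 4930 and 1673). With median-of-ratios scaling they were 0, 0, 0, 0, 0 and 0 (all genes 387, 2709, 1582, 110, 2694 and 1129). With a log2 fold change beyond 1 they were 0, 3, 1, 2, 3 and 0 (all genes 1228, 7623, 3598, 5054, 9486 and 2035). With an adjusted p under 0.05 they were 2, 8, 7, 8, 10 and 1 (all genes 5734, 11587, 8295, 11691, 12580 and 5909). Without a filter they were 0, 6, 1, 3, 5 and 0 (all genes 3, 8145, 1901, 8286, 11287 and 2127). With only the 2 groups compared they were 0, 5, 5, 3, 9 and 1 (all genes 9, 9197, 4761, 9787, 12352 and 2420). With a replicate block, where replicate numbers do not pair, they were 0, 8, 7, 2, 6 and 0 (all genes 989, 9485, 4952, 7266, 11202 and 1130).

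Some log2 fold changes against DMSO that were negative on the spike-in scale became positive under other scalings, and HK2 did not. With equal total FPKM in Ku they were at 50 nM GPI 0.28, ALDOA 0.20, ENO1 0.22, PKM 0.26, LDHA 0.0763, and at 250 nM GPI 0.27, ALDOA 0.22, TPI1 0.42, GAPDH 0.54, PGK1 0.58, ENO1 0.35, PKM 0.44. With equal total FPKM in Cov they were at 50 nM TPI1 0.0369, GAPDH 0.0205, and at 250 nM GPI 0.20, ALDOA 0.31, TPI1 0.36, GAPDH 0.41, PGK1 0.18, ENO1 0.20, PKM 0.29. With median-of-ratios scaling in Ku they were at 50 nM GPI 0.54, ALDOA 0.46, ENO1 0.48, PKM 0.51, LDHA 0.33, and at 250 nM GPI 0.77, PFKP 0.22, ALDOA 0.72, TPI1 0.92, GAPDH 1.04, PGK1 1.08, ENO1 0.85, PKM 0.94, LDHA 0.12. With median-of-ratios scaling in Cov they were at 50 nM GPI 0.45, ALDOA 0.48, TPI1 0.58, GAPDH 0.56, PGK1 0.51, ENO1 0.42, PKM 0.47, LDHA 0.36, and at 250 nM GPI 0.76, PFKP 0.31, ALDOA 0.88, TPI1 0.93, GAPDH 0.98, PGK1 0.75, ENO1 0.77, PKM 0.86, LDHA 0.0452. With equal totals without small RNA rows, the numbers of the 10 genes with negative values were 2 and 3 in Ku and 2 and 3 in Cov at 50 nM and 250 nM, with medians of 0.16 and 0.16 and of 0.13 and 0.24. In Ku at 50 nM, signs also turned on the DMSO library left out, replicate 2 or replicate 1: GPI -0.0932 and 0.0577, TPI1 -0.00474 and 0.0632, GAPDH -0.00707 and 0.055, PGK1 -0.0259 and 0.0873. The share of summed FPKM held by the 10 genes, with small RNA rows left out, was 1.78, 2.03, 2.11% in Ku and 1.73, 1.96, 2.21% in Cov for DMSO, 50 nM and 250 nM, and with active genes only 1.09% in Cov DMSO. Leaving out 250 nM replicate 1 gave 4 calls in Ku at 250 nM.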
